A study of Homo sapiens with 12 samples.

Results

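A set of 8 innate immune defence genes, most of which encode secreted proteins, was followed across the groups: the lipopolysaccharide-binding protein gene LBP, the cathelicidin gene CAMP, the complement genes C1R, C1S, C3 and CFB, and the complement inhibitor genes CFI and SERPING1. The set is 8 of the 38021 gene names in the count table, and all 8 were among the 16838 genes with enough counts to be tested. The set was chosen by name because LBP, CFI and CAMP showed large changes that depended on the cell line in these same libraries. The values of these 3 genes are therefore a description without a test. CAMP and SERPING1 passed the filter on low counts only through WT8 shControl, the group in which they were high, so those genes had to differ there, and SERPING1 is likewise described without a test. The other 4 genes, CFB, C3, C1R and C1S, carry adjusted p-values from the fit over all genes.

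RNA was sequenced from 786O cells, which come from a clear cell renal carcinoma and lack functional VHL, and from WT8 cells, which are 786O cells that express wildtype VHL. VHL is the ubiquitin ligase subunit that marks the hypoxia-inducible factors for degradation, and BMAL1 is the activating transcription factor of the circadian clock. Cells of each line carried a lentiviral pLKO.1 vector with a scrambled control hairpin (shControl) or a hairpin against BMAL1 (shBMAL1) and were grown as puromycin-selected pools in medium with fetal bovine serum. This gave 4 groups of 3 libraries, which the labels call biological replicates: 786O shControl, 786O shBMAL1, WT8 shControl and WT8 shBMAL1. Every group thus carried a viral vector and had been under drug selection, and no uninfected cells were analysed here. The labels name a single hairpin against BMAL1, and the lines may differ in more than VHL. Nothing in the labels says how separate the replicate cultures were, so the p-values measure the spread between these libraries.

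Library totals ran from 33182025 to 36477509 counts. The transcript of BMAL1, listed as ARNTL, had 378 to 464 counts in 786O shControl against 128 to 142 in 786O shBMAL1, and 309 to 355 in WT8 shControl against 56 to 72 in WT8 shBMAL1. In 786O the VHL count was between 602 and 719 for shControl and between 641 and 740 for shBMAL1. In WT8 it was between 31578 and 37514 for shControl and between 23607 and 24876 for shBMAL1. Its level in WT8 was also lower with shBMAL1, at 647 ± 15.0 CPM against 981 ± 56.5 CPM (counts scaled for library size; SD, n = 3), and the part of this in the results was not tested. Both genes thus went with the labels in every library. The renal marker PAX8 had 10745 to 50597 counts, whereas the leukocyte marker PTPRC had 0 or 1 count and the hepatocyte marker ALB 0 to 9 counts in each library. Not all markers of these types were that low. Among the leukocyte markers, CD68 had 647 to 1503 counts, CSF1R 2 to 236 and ITGAM 10 to 140 per library. Among the hepatocyte markers, F2 had 20 to 202 counts and APOH 0 to 45. The renal markers were not all high either, as LRP2 had 0 to 3 counts, CUBN 7 to 64 and NDUFA4L2 6 to 60 per library.

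Complement is a cascade of serum proteases. C1R and C1S are the proteases of the first component of the classical pathway, C3 is the central protein that all pathways cleave, and factor B (CFB) supplies the protease that amplifies C3 cleavage in the alternative pathway. The C1 inhibitor (SERPING1) blocks C1R and C1S, and factor I (CFI) cuts the active C3b and C4b fragments with the help of cofactors. LBP is an acute phase protein that hands bacterial lipopolysaccharide to CD14, and CAMP is the precursor of the antimicrobial peptide LL-37. The liver makes most of the circulating proteins of this group, leukocytes store CAMP, and renal tubular epithelium is known to make C3 and factor B locally.

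With shBMAL1, each of the 8 genes was lower in WT8 cells, whereas in 786O LBP, CFI, CFB and C1R were higher, C3 and C1S were lower, and CAMP and SERPING1 stayed at or under 3 counts in each library. For CFB and C1R the group means ran from WT8 shControl through 786O shBMAL1 and 786O shControl down to WT8 shBMAL1, and LBP had the same order except that 786O shBMAL1 came first. Of the 4 genes with a test, 2 rose and 2 fell in 786O (adjusted p under 0.1), where 24.5% of all tested genes were called higher and 24.4% lower. In WT8, 4 of 4 fell, where 32.9% of all tested genes were called higher and 36.9% lower. With shControl, CFB, C1R and C1S were higher in WT8 than in 786O and C3 was lower, where 39.3% of all genes were called higher and 40.1% lower. The interaction, which is the log2 change in WT8 less the log2 change in 786O, was below 0 and called for CFB, C3, C1R and C1S, where 27.4% of all genes were called above 0 and 28.6% below. These counts include genes chosen with earlier results of these libraries known and are no independent support. As these are bulk samples, fewer expressing cells and less RNA per cell cannot be told apart.

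**Figure D1:**
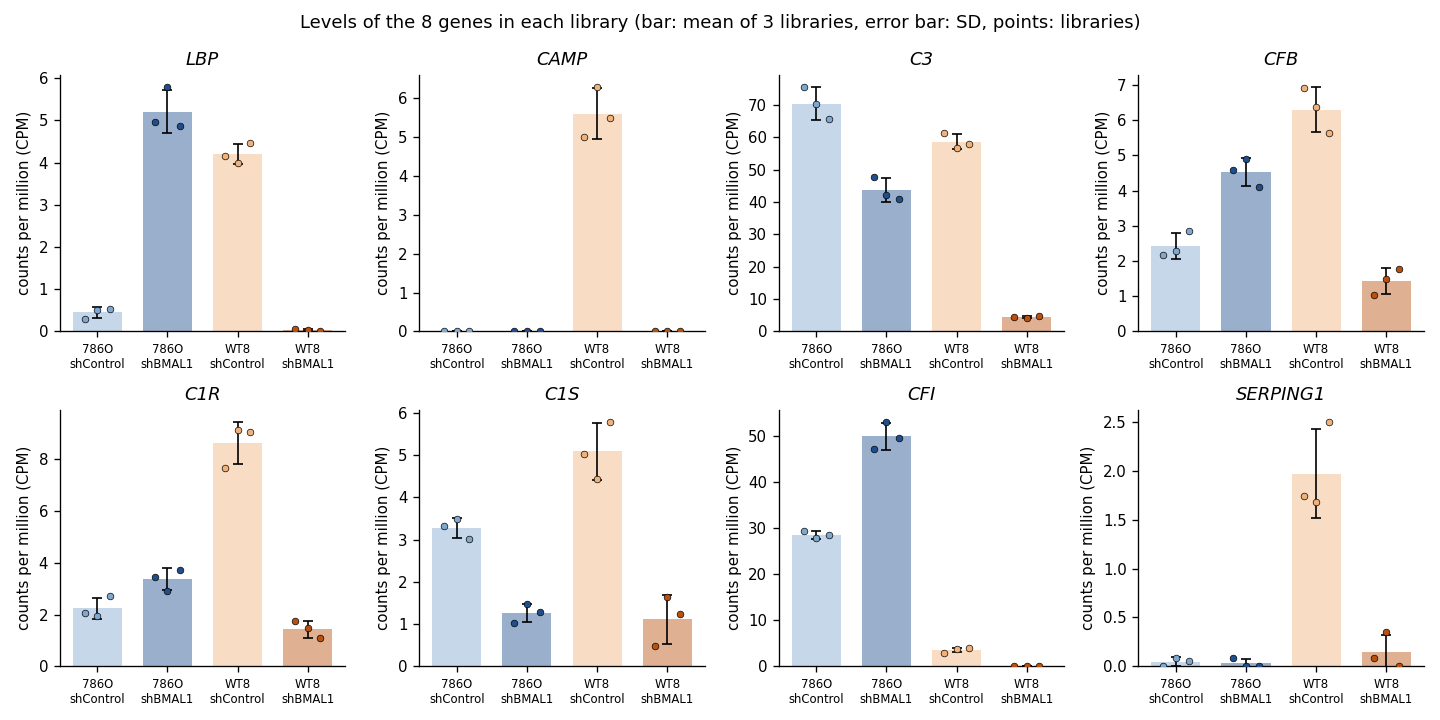
Scaled counts (CPM, vertical axis, linear from 0, ranges differ between panels) of the 8 genes in the 4 groups (horizontal axis). Bars are means of 3 libraries, error bars are SD and points are libraries. WT8 shBMAL1 has the lowest mean of the 4 groups for LBP, C3, CFB, C1R, C1S and CFI, its C1S libraries overlap those of 786O shBMAL1, and CAMP has counts in WT8 shControl alone.

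RefSeq promoter windows on GRCh38.p14 were found for 4 of the 8 genes, CAMP, CFI, CFB and C1R, with 2 windows for C1R. LBP, C3, C1S and SERPING1 were not matched. The 250 bases before the start are printed for CAMP and CFI, which were among the genes with the largest values of change, and for CFB, whose window held the most matches of the motifs searched. Capitals mark those matches.
CAMP, chr3:48223245-48223494, plus strand: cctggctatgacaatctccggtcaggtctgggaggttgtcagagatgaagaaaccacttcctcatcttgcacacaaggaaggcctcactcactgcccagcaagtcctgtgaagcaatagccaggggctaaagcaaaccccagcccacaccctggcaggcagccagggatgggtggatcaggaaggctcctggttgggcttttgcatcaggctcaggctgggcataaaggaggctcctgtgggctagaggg
CFI, chr4:109802000-109802249, minus strand: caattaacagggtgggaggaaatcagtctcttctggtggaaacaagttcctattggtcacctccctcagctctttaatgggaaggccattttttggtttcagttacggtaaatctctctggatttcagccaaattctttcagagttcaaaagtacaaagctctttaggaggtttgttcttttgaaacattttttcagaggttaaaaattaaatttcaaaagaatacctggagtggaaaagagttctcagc
CFB, chr6:31945845-31946094, plus strand: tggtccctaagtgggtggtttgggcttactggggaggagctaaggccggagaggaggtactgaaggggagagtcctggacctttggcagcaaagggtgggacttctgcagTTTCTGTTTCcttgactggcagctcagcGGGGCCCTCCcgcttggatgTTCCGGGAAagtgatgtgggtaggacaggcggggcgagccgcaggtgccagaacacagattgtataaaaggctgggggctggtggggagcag
The motifs were chosen after the values were seen and searched on both strands. They were the E-box CACGTG bound by BMAL1 dimers, the hypoxia response core ACGTG, which also lies inside CACGTG, its variant GCGTG, the interferon element core (GAAA, any 2 bases, GAAA), the STAT palindrome TTCNNNGAA, the C/EBP core TTGCNNAA and the NF-kB consensus. Over all 35116 promoter windows of this length, CACGTG was present in 6.34%, ACGTG in 18.5% and GCGTG in 32.2%. None of these 3 was present in the 5 windows of the 4 genes. The CFB window held the interferon element core beginning 140 bases before the start, the NF-kB consensus at 112 and TTCNNNGAA at 92, which were present in 3.02%, 9.96% and 6.57% of all windows. The C1R windows held TTGCNNAA in each, 106 and 167 bases before the respective start, and TTCNNNGAA in one, at 86 bases, with TTGCNNAA in 9.05% of all windows. The CAMP and CFI windows held none of the motifs. A match describes letters only, and a window without one says nothing about binding.

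LBP (GRCh37 chromosome 20, 36974885 to 37005655, plus strand) was high in 1 group of each line. Its counts were 10, 18 and 19 in 786O shControl and 173, 201 and 169 in 786O shBMAL1. In WT8 they were 153, 138 and 164 with shControl and 2, 1 and 0 with shBMAL1. In 786O every shBMAL1 library was above every shControl library, in WT8 every shBMAL1 library was below, and WT8 shControl lay next to 786O shBMAL1. As CPM the means were 0.449 ± 0.137 (SD, n = 3) in 786O shControl, 5.20 ± 0.508 in 786O shBMAL1, 4.21 ± 0.232 in WT8 shControl, and 0.0266 ± 0.0266 in the shBMAL1 group of WT8. The fitted log2 change with shBMAL1 in 786O was 3.52 (SE 0.24), or 11.5-fold higher. In WT8 the summed counts gave a 158-fold lower level, with a 95% counting interval of 53.6 to 768, which rests on 3 counts in all. Between the shControl groups LBP was 9.29-fold higher in WT8 (log2 3.22, SE 0.24). The fitted log2 change in WT8 was -7.12, and it was -7.96 without WT8 shBMAL1 replicate 1 and -6.59 without WT8 shBMAL1 replicate 3.

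CAMP (chromosome 3, 48264837 to 48266981, plus strand) was read in a single group. It had 184, 217 and 202 counts in WT8 shControl, or 5.60 ± 0.653 CPM (SD, n = 3), and 0 counts in each of the other 9 libraries. Against a floor of 3 counts per library it was at least 69.9-fold lower with shBMAL1 in WT8 and at least 64.9-fold higher in WT8 shControl than in 786O shControl. No fold can be given for 786O, where both groups were at 0. A count of 0 allows a level of up to the floor in each of these libraries and does not show that the transcript is absent.

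C1R (chromosome 12, 7187513 to 7245203, minus strand) rose in 786O and fell in WT8. Its counts were 71, 68 and 95 in 786O shControl, 121, 101 and 130 in 786O shBMAL1, 283, 315 and 334 in WT8 shControl, and 66, 55 and 41 in WT8 shBMAL1. Neither pair of groups overlapped. The log2 change with shBMAL1 was 0.59 (SE 0.18, adjusted p = 0.0073) in 786O and -2.58 (SE 0.18, adjusted p = 2.7e-15), or 5.98-fold lower, in WT8. The 786O change was the smallest of those called among these 4 genes and ranged from 0.49 to 0.74 as single libraries were left out. With shControl, C1R was 3.85-fold higher in WT8 (log2 1.94, SE 0.17, adjusted p = 7.76e-13). The interaction was -3.17 (SE 0.25, adjusted p = 3.66e-13).

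C1S (chromosome 12, 7096351 to 7178336, plus strand), the partner protease of C1R, lies 9177 bases from C1R on the opposite strand. It fell in both lines. Its counts were 114, 122 and 106 in 786O shControl, 36, 51 and 45 in 786O shBMAL1, 185, 153 and 213 in WT8 shControl, and 18, 61 and 46 in WT8 shBMAL1. The shBMAL1 libraries were below the shControl libraries in each line, and those of 786O lay within the range of those of WT8. The log2 change was -1.37 (SE 0.24, adjusted p = 2.6e-05), or 2.59-fold lower, in 786O and -2.19 (SE 0.24, adjusted p = 1.32e-09), or 4.56-fold lower, in WT8. C1R and C1S thus moved in opposite directions in 786O and in the same direction in WT8. With shControl, C1S was 1.55-fold higher in WT8 (log2 0.64, SE 0.21, adjusted p = 0.00773). The interaction of -0.82 (SE 0.35, adjusted p = 0.05) was no longer called without 786O shBMAL1 replicate 2 (-0.69, adjusted p = 0.142), WT8 shControl replicate 3 (-0.71, adjusted p = 0.117) or WT8 shBMAL1 replicate 1 (-0.45, adjusted p = 0.22).

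C3 (chromosome 19, 6677715 to 6730573, minus strand) had the most counts of the 8 genes in 3 of the 4 groups. It had 2590, 2464 and 2307 counts in 786O shControl and 1666, 1468 and 1424 in 786O shBMAL1. In WT8 it had 2259, 1959 and 2133 with shControl and 171, 153 and 182 with shBMAL1. The groups did not overlap in either line, and WT8 shBMAL1 stood far below the other 9 libraries. Mean levels were 70.5 ± 4.98 CPM (SD, n = 3) and 43.7 ± 3.68 CPM in 786O, and 58.7 ± 2.38 CPM and 4.50 ± 0.392 CPM in WT8. The log2 change was -0.69 (SE 0.07, adjusted p = 8.05e-11), or 1.62-fold lower, in 786O and -3.70 (SE 0.08, adjusted p = 1.62e-29), or 13.0-fold lower, in WT8. The lines differed little with shControl (log2 -0.26, SE 0.06, adjusted p = 0.000459), so the interaction of -3.01 (SE 0.11, adjusted p = 4.02e-23) came with nearly equal starting levels.

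CFB (chromosome 6, 31913427 to 31919863, plus strand), the gene with 3 motif matches in the window printed above, followed the pattern of C1R. Its counts were 74, 80 and 100 in 786O shControl, 160, 170 and 143 in 786O shBMAL1, 254, 220 and 207 in WT8 shControl, and 39, 56 and 66 in WT8 shBMAL1. No pair of groups overlapped. The log2 change was 0.90 (SE 0.17, adjusted p = 5.83e-05), or 1.86-fold higher, in 786O and -2.13 (SE 0.18, adjusted p = 8.28e-13), or 4.39-fold lower, in WT8. With shControl it was 2.59-fold higher in WT8 (log2 1.37, SE 0.17, adjusted p = 4.81e-09). The interaction was -3.03 (SE 0.25, adjusted p = 1.02e-12).

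CFI (chromosome 4, 110652164 to 110723306, minus strand) was the only one of the 8 genes for which both 786O groups lay above both WT8 groups. It had 1008, 969 and 999 counts in 786O shControl and 1644, 1842 and 1726 in 786O shBMAL1. In WT8 it had 109, 130 and 142 with shControl and 0, 3 and 0 with shBMAL1. All 4 groups were apart. Mean levels were 28.5 ± 0.855 CPM (SD, n = 3), 49.9 ± 2.92 CPM, 3.53 ± 0.495 CPM and 0.0267 ± 0.0463 CPM in that order. CFI was 1.75-fold higher with shBMAL1 in 786O (log2 0.81, SE 0.08) and 8.07-fold lower in WT8 shControl than in 786O shControl (log2 -3.01, SE 0.11). In WT8 with shBMAL1 the summed counts gave a 132-fold lower level, with a 95% counting interval of 44.9 to 643. All 3 counts of that group came from replicate 2, and the fitted log2 change of -6.87 was -9.97 without it.

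SERPING1 (chromosome 11, 57364860 to 57386644, plus strand) was near the floor in 3 of the 4 groups. It had 0, 3 and 2 counts in 786O shControl, 3, 0 and 0 in 786O shBMAL1, 64, 58 and 92 in WT8 shControl, and 3, 13 and 0 in WT8 shBMAL1. WT8 shControl was above all other libraries, and the other groups overlapped. The log2 change with shBMAL1 in WT8 was -3.76 (SE 0.57), or 13.6-fold lower, and it was -5.50 without WT8 shBMAL1 replicate 2. With shControl it was 38.5-fold higher in WT8 (log2 5.27, SE 0.69), and the log2 difference was 5.93 without 786O shControl replicate 2. No fold is given for 786O. As the filter was passed only through WT8 shControl, these are values without a test.

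**Figure D2:**
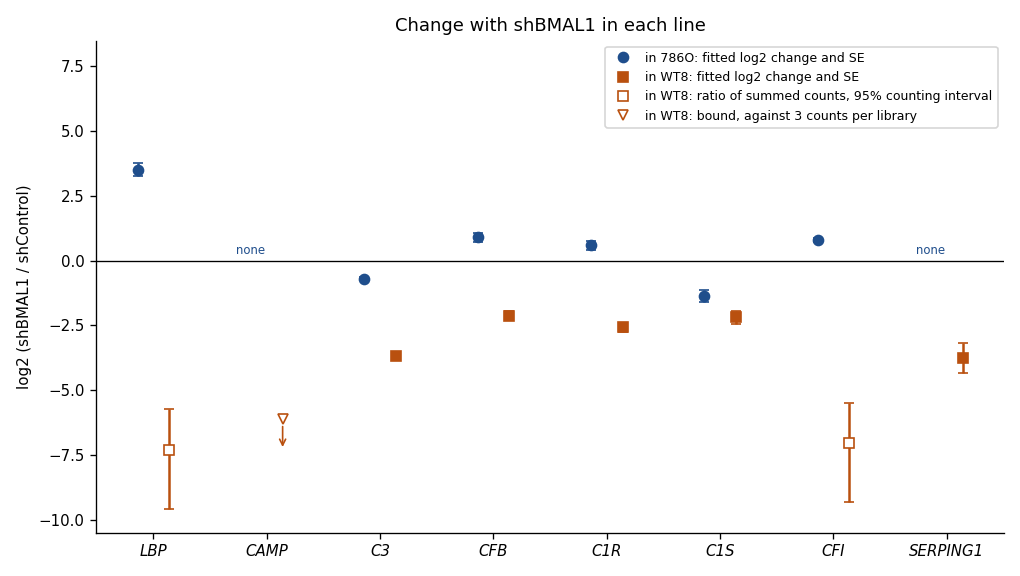
Log2 ratio of shBMAL1 to shControl (vertical axis) for the 8 genes (horizontal axis) in 786O (circles) and WT8 (squares and triangle). Filled symbols are fitted changes with SE, open squares are ratios of summed counts with 95% counting intervals, the open triangle with an arrow is the bound for CAMP against 3 counts per library, and "none" marks genes at or under that floor in both groups. The WT8 values of all 8 genes lie below 0, and LBP has the highest 786O value at 3.52.

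Levels were compared between genes per kilobase of transcript, using 1 transcript per gene. In 786O shControl, CFI at 14.4 ± 0.432 CPM per kb (SD, n = 3) and C3 at 13.5 ± 0.953 led and did not differ beyond their spread. They were followed by C1S at 1.22 ± 0.0899, C1R at 1.06 ± 0.192 and CFB at 0.981 ± 0.147 CPM per kb, each within its spread of the next, and by LBP at 0.246 ± 0.0749. In 786O shBMAL1, CFI stood alone at 25.2 ± 1.48 CPM per kb, ahead of C3 at 8.35 ± 0.703. The order was different in WT8 shControl, where C3 at 11.2 ± 0.455 and CAMP at 9.47 ± 1.10 CPM per kb led, C1R followed at 4.09 ± 0.387, and CFB at 2.55 ± 0.259 and LBP at 2.31 ± 0.127 were within their spread of each other, as were C1S at 1.90 ± 0.253 and CFI at 1.79 ± 0.25. In WT8 shBMAL1, all 8 genes were under 1 CPM per kb, and C3 at 0.861 ± 0.0749 and C1R at 0.682 ± 0.156 were the highest. LBP and CFI there had 0.0146 and 0.0135 CPM per kb.

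**Figure D3:**
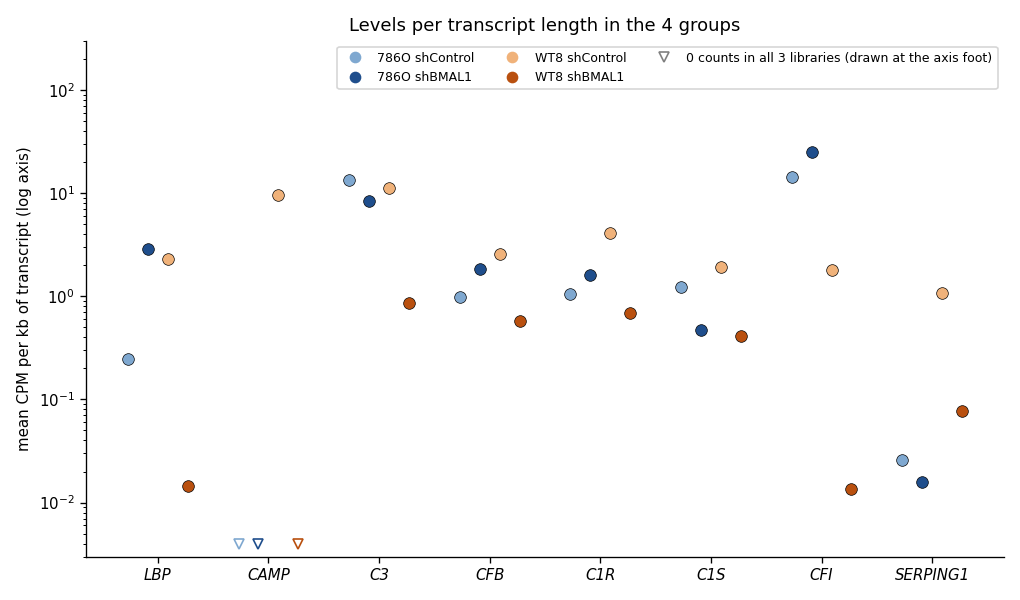
Mean CPM per kilobase of transcript (vertical axis, log scale) of the 8 genes (horizontal axis) in the 4 groups (colours, 3 libraries each), with groups at 0 in all 3 libraries drawn as open triangles at the axis foot. CFI leads in 786O shBMAL1 at 25.2 CPM per kb, and WT8 shBMAL1 lies under 1 CPM per kb for every gene.

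The genes whose log2 CPM followed LBP, CFI and CAMP most closely over the 12 libraries were listed as a description among 12948 tested genes with a mean of at least 50 counts. The libraries share 4 groups, so these correlations mostly compare 4 levels. For LBP they were KCCAT211 (Pearson r = 0.983), FBXO17 (r = 0.981), LAMA1 (r = 0.981), HTRA1 (r = 0.976) and OSMR (r = 0.972). LAMA1, a laminin subunit, had 78 to 85, 211 to 248, 230 to 240 and 43 to 65 counts in 786O shControl, 786O shBMAL1, WT8 shControl and WT8 shBMAL1. In that order the groups had 9344 to 9685, 11515 to 12341, 11452 to 12202 and 6820 to 7436 counts of OSMR, the oncostatin M receptor. For CFI they were VEGFA (r = 0.995), WDR91 (r = 0.994), FAM20C (r = 0.993), SHC3 (r = 0.993) and CA12 (r = 0.993). VEGFA, a vascular growth factor, had 5354 to 5576, 5906 to 6375, 3195 to 3638 and 1130 to 1205 counts in the groups in that order. For CAMP they were TNNT1 (r = 0.993), ZNF768 (r = 0.991), NXF1 (r = 0.99), AGPAT4 (r = 0.99) and CALCOCO1 (r = 0.989). TNNT1, a troponin subunit, had 4239 to 4803 counts in WT8 shControl and 863 to 1161 in the other 9 libraries.

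The rest of the complement system was then examined. Of the 16 other genes of the classical and lectin pathways, 6 were tested, and the recognition genes C1QA, C1QB and C1QC had 0 counts in every library. With shBMAL1 in WT8, 5 of the 6 fell and 1 rose, where 36.9% of all tested genes were called lower and 32.9% higher. The median log2 change was -1.84 against -0.04 over all tested genes. In 786O 2 rose and 0 fell by edgeR, where 24.5% of all tested genes were called higher and 24.4% lower. The median was 0.87 against 0.00 over all tested genes, and 0 fell by DESeq2 or at an unadjusted p under 0.05. Those that rose were C4A and C4B, the near-identical genes of the C4 substrate of C1S. C4B rose from 24 to 43 counts to 101 to 114 in 786O (log2 1.60, SE 0.24, adjusted p = 9.8e-07) and fell from 130 to 143 to 21 to 44 in WT8 (log2 -2.28, SE 0.24, adjusted p = 2.19e-10). C4A followed with 1.30 and -2.01 (adjusted p = 2.17e-06 and 1.1e-10), and reads of the copies may have been split between them. C2, the protease partner of C4b, had 8 to 19 counts in 786O shControl and 118 to 159 in WT8 shControl (log2 3.23, SE 0.30, adjusted p = 7.49e-12), and it fell with shBMAL1 in WT8 by 1.66 on the log2 scale (adjusted p = 6.59e-07). MBL2, the mannose-binding lectin, rose in WT8 (log2 2.03, adjusted p = 0.00408) from 1 to 7 counts to 11 to 19.

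Of 9 other genes of the alternative and terminal pathways, 4 were tested. With shBMAL1 in WT8, C5, the source of the anaphylatoxin C5a and of the first subunit of the membrane attack complex, rose (log2 0.92, SE 0.18, adjusted p = 4.25e-05). C8G fell from 40 to 47 counts to 23 to 26 (log2 -0.92, SE 0.34, adjusted p = 0.0176). CFD was also called lower but had few counts, 1 to 9 against 0 to 2 (log2 -1.76, SE 0.80, adjusted p = 0.0534). The median was -0.77 in WT8 and -0.07 in 786O, where properdin (CFP) rose (log2 1.15, adjusted p = 0.0414). With shControl, C5 was 9.53-fold lower in WT8 than in 786O (log2 -3.25, SE 0.16, adjusted p = 5.37e-20), at 45 to 55 against 441 to 501 counts.

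Among 18 other complement inhibitor genes, 10 were tested. In 786O, 8 rose and 1 fell with shBMAL1 (24.5% and 24.4% of all tested genes), with a median log2 change of 0.95. In WT8, 2 rose and 3 fell (32.9% and 36.9% of all tested genes), with a median of -0.23, or 0.00 when floor genes took their bound. SUSD4 rose in 786O (log2 0.94, SE 0.11, adjusted p = 2.84e-09) and fell in WT8 (log2 -1.63, SE 0.10, adjusted p = 6.27e-16), which was the direction of CFB and C1R. C4BPB, the beta chain of the C4b-binding protein, did the reverse of the 8 genes in WT8 and rose from 19 to 44 counts to 403 to 460 (log2 3.56, SE 0.28, adjusted p = 1.2e-09). The membrane-bound inhibitors moved less, with log2 changes of -0.30 and -0.46 for CD46 and 0.19 and 0.59 for CD59 in 786O and WT8 (adjusted p = 5.99e-07, 1.34e-11, 0.0168 and 1.14e-08). CLU, which was 28.4-fold higher in WT8 with shControl (log2 4.83, SE 0.07, adjusted p = 2.03e-31), had log2 changes of 0.95 in 786O and -0.52 in WT8 (adjusted p = 2.55e-13 and 8.12e-10).

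Of 22 other acute phase genes, 11 were tested, and CRP, APCS and ORM2 had 0 counts in every library. With shBMAL1, 5 rose and 5 fell in 786O (24.5% and 24.4% of all tested genes), with a median log2 change of 0.63. In WT8, 1 rose and 8 fell (32.9% and 36.9% of all tested genes), with a median of -1.38. Over all tested genes the medians were 0.00 and -0.04. These counts include FGG in 786O and both HPX and LCN2 in WT8, which passed the filter only through the group in which they were high. LRG1, a leucine-rich glycoprotein, was the acute phase gene with the largest fall in WT8, from 477 to 661 counts to 19 to 34 (log2 -4.61, SE 0.23, adjusted p = 1.31e-16), and was 32.1-fold higher in WT8 than in 786O with shControl. ITIH4 moved in opposite directions in the lines, with log2 changes of 2.10 in 786O and -2.32 in WT8 (adjusted p = 5.21e-06 and 8.21e-06). FGB, the fibrinogen beta chain, rose in 786O from 13 to 24 counts to 219 to 241 (log2 3.80, SE 0.30, adjusted p = 4.33e-12) and had 1 to 16 counts in the libraries of WT8. The serum amyloid genes SAA1 and SAA2, which are close copies, fell in both lines, with log2 changes of -0.99 in 786O and -1.72 in WT8 for SAA1 (adjusted p = 1.15e-07 and 2.65e-15). SERPINA1, the alpha-1-antitrypsin gene, rose in both, by log2 values of 0.70 and 0.35 (adjusted p = 2.57e-15 and 3.02e-08).

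Among 18 other antimicrobial genes, 4 were tested. PRTN3 and ELANE among them, which encode proteases of neutrophil granules, passed the filter only through WT8 shControl, as CAMP did, so no count or median is given for WT8. In 786O, PRTN3 and ELANE had at most 2 counts in each library, so a call was out of reach there. The other tested genes, DEFB1 and VDR, were not called in 786O (adjusted p = 0.734 and 0.75), where 48.9% of all tested genes were called. PRTN3 had 35 to 54 counts in WT8 shControl, 1 to 9 with shBMAL1 and 0 to 2 in each library of 786O, and ELANE had 17 to 20 in WT8 shControl and 0 elsewhere. The granule genes MPO, S100A8 and S100A9 and the leukocyte genes CD3E, FCGR3A and TYROBP had 0 counts in every library. The leukocyte markers CD68, CSF1R and ITGAM did have counts, as given above. VDR, the vitamin D receptor known to drive CAMP, rose in WT8 from 20 to 38 counts to 48 to 62 (log2 0.77, adjusted p = 0.0154).

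The cytokines, receptors and factors that are known to induce acute phase genes were counted next. Of 21 genes, 17 were tested, and with shBMAL1 8 rose and 3 fell in 786O (median log2 0.12), whereas 15 fell in WT8 (median -0.80) and 0 rose by edgeR, by DESeq2 or at an unadjusted p under 0.05. Of all tested genes, 24.5% were called higher and 24.4% lower in 786O, and 32.9% and 36.9% in WT8. IL6, the main acute phase cytokine, had 1722 to 1942 and 1823 to 2119 counts in 786O shControl and shBMAL1 (adjusted p = 0.251). In WT8 it fell from 1264 to 1354 counts to 189 to 290 (log2 -2.51, SE 0.10, adjusted p = 1.74e-20). IL1B, which is in the count for WT8 although it passed the filter only through WT8 shControl, had 156 to 175 counts there and 0 to 3 in each of the other 9 libraries. NFKBIZ, a nuclear cofactor of NF-kB, rose in 786O (log2 0.57, SE 0.06, adjusted p = 3.19e-10) and fell in WT8 (log2 -1.23, SE 0.06, adjusted p = 3.27e-20), with the interaction of largest fall in this list (-1.79, SE 0.08, adjusted p = 3.17e-20). OSMR did likewise, with 0.34 and -0.80 (adjusted p = 3.06e-08 and 2.56e-18). CEBPB, a C/EBP factor of acute phase genes, fell in both lines, with log2 changes of -0.21 and -1.14 (adjusted p = 0.016 and 5.8e-17).

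**Figure D4:**
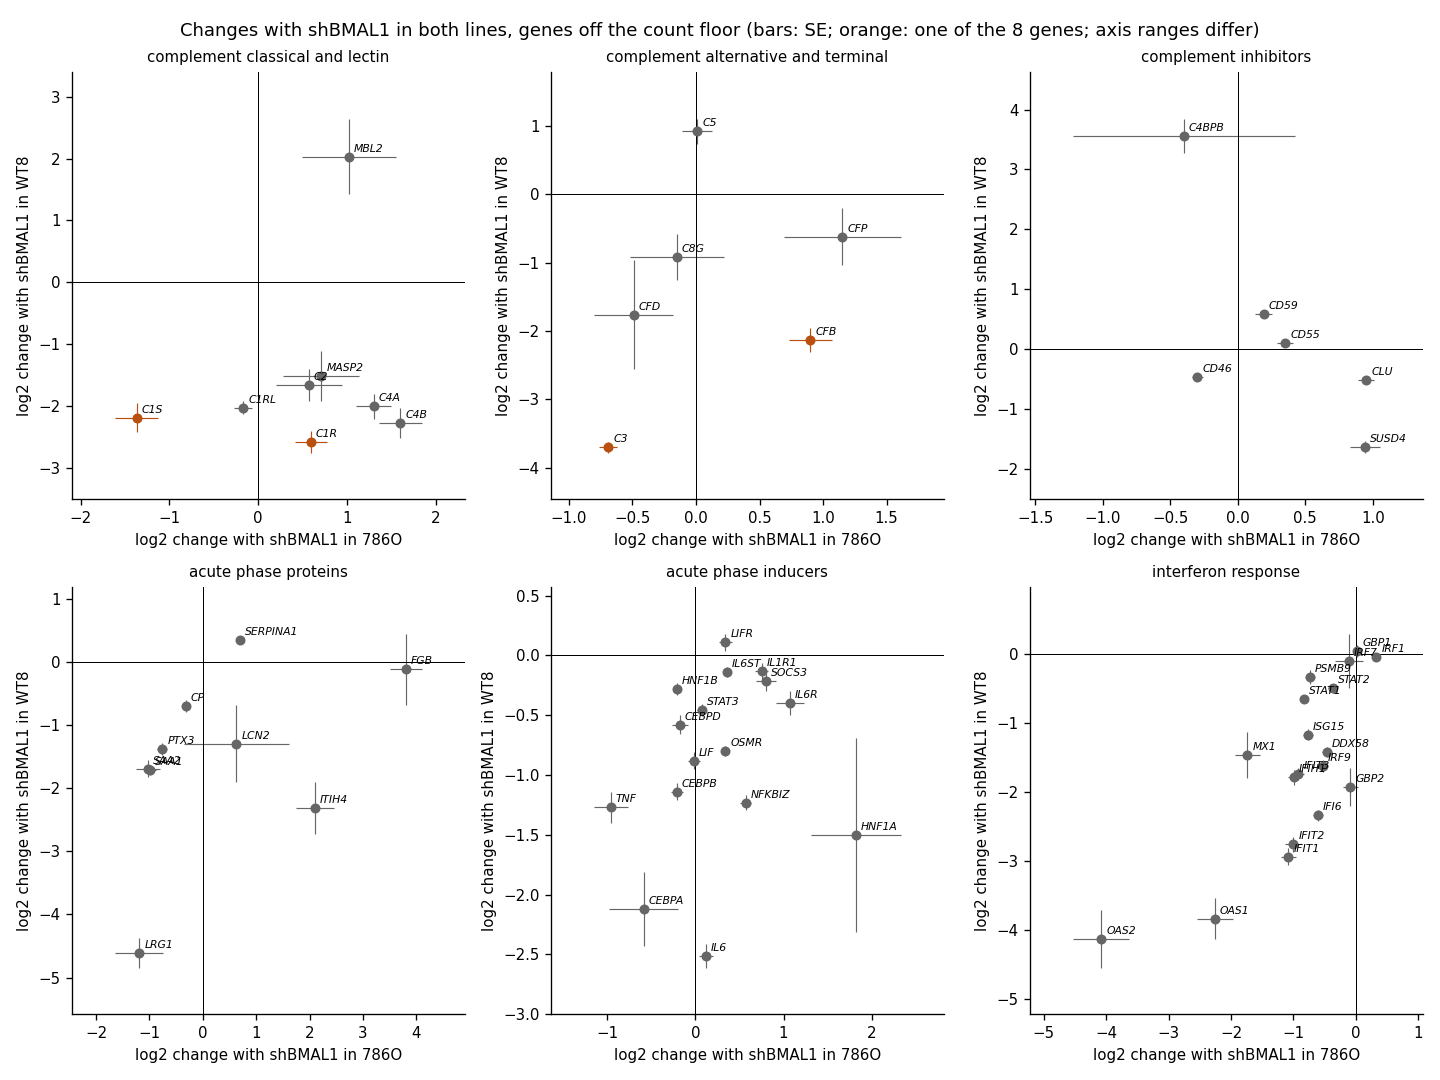
Fitted log2 change with shBMAL1 in 786O (horizontal axis) against that in WT8 (vertical axis) for 63 of the 74 tested genes of 6 lists, with SE bars. Genes at the floor in a group compared (among them LBP, CFI and SERPING1) are left out, as is 1 gene not reported here. Members of the set are orange and axis ranges differ between panels. C1R, CFB, C4A and C4B lie right of 0 and below 0 in their panels, whereas most interferon genes lie left of 0 and below 0.

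Some values that moved with these results need to be set beside them. The summed level of the 8 hepatocyte markers was 4.89 to 6.38 CPM in WT8 shControl but 0.589 to 0.936 CPM in WT8 shBMAL1, with 1.65 to 1.75 and 2.04 to 2.59 CPM in 786O shControl and shBMAL1. In WT8 most of it was F2, the prothrombin gene, which went from 163 to 202 counts in WT8 shControl down to 20 to 30 with shBMAL1, while ALB, APOA1, AHSG and TTR had at most 9 counts in any library. The 10 leukocyte markers summed to 30.2 to 36.8 CPM in WT8 shControl, 18.9 to 23.0 CPM in WT8 shBMAL1 and 38.0 to 48.4 CPM in 786O. The 10 renal markers were higher with shBMAL1 in 786O and lower with it in WT8, with sums of 2020 to 2160 and 2670 to 2700 CPM in 786O shControl and shBMAL1, and 2650 to 2720 and 1880 to 1990 CPM in WT8. The 6 endothelial markers summed to at most 1.74 CPM. The part of these shifts in the results was not tested. The WT8 shBMAL1 comparison and the comparison of the lines share the WT8 shControl libraries, so a gene that was high there tends to appear in both.

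Neighbouring genes were looked up for each member because reads of overlapping genes cannot be told apart without knowing whether strand was used in counting. C1R overlaps C1RL on the same strand, which had 291 to 407 and 291 to 335 counts in 786O shControl and shBMAL1 (adjusted p = 0.208) and fell in WT8 (log2 -2.03, SE 0.10, adjusted p = 2.49e-19). C1S overlaps LPCAT3 on the opposite strand, with log2 changes of -0.19 in 786O and 0.28 in WT8 (adjusted p = 0.0047 and 2.07e-05). C3 overlaps GPR108 on the same strand, which rose in 786O (log2 0.29, adjusted p = 7.11e-06) and fell in WT8 (log2 -0.56, adjusted p = 1.39e-12). CFB overlaps the end of C2. The tested genes nearest to CAMP on either side moved apart, CDC25A rising in WT8 with shBMAL1 (log2 2.45, SE 0.06, adjusted p = 1.34e-28) and ZNF589 falling (log2 -1.53, SE 0.16, adjusted p = 2.03e-10). PLA2G12A, 938 bases from CFI, had log2 changes of 0.29 in 786O (adjusted p = 0.07) and 0.10 in WT8 (adjusted p = 0.543), against 0.81 and -6.87 for CFI.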

How the data were processed

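RNA-seq was analysed from 12 libraries of 786O and WT8 cells. Per the methods of the study, the authors used SeqMan NGen 17 to align paired reads to GRCh37 and ArrayStar 17 for the counts, and per the labels the libraries were stranded mRNA libraries, while the submitters' processing notes name hg38, STAR and DESeq2. The annotation, the use of strand and the treatment of reads with several alignments are not given in the sources used here. The values are estimated counts per gene as deposited by the authors, although the tests had been planned for plain counts. A value of 0.028 stood in for 0 in 47.0% of the cells of the table and was set to 0, 5.67% of the other values were not whole and were rounded, and lines with the same name were summed. The count 2 occurred 14754 times and the count 1 occurred 11117 times, so mates of a pair may have been counted separately.

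Counts were fitted over the 12 libraries with a mean per group in edgeR 4.0.16 (R 4.3.3; TMM, filterByExpr, robust quasi-likelihood F test), which kept 16838 of 26938 genes with a count. The common biological coefficient of variation was 5.7%. Adjusted p-values (Benjamini-Hochberg, all tested genes) were called under 0.1, the false discovery rate the study used. SE was obtained from the log2 change and the F statistic. Intervals and floors cover counting error only. Positions and lengths are from GENCODE 44 on GRCh37 (MANE Select transcript, or the longest for C1R). The script was tested on simulated data. Alternatives were DESeq2 1.42.0, other scaling, filters, thresholds, prior counts, halved counts, 2 groups only, a replicate block and each library left out.

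The members, gene lists and tests were chosen with earlier results of these data known. Named list genes are, per list and comparison, those with the largest called rise and fall at a mean of at least 50 counts without overlap between groups. Others (among them C4A, CD14, FGG, HPX, LCN2, ITIH4, IL1B, PRTN3, ELANE, MBL2 and TLR4) were named after their values were seen. Some genes of the complement inhibitor list are not reported here and count only in its totals.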

Additional observations from a re-analysis of the deposited data

Results flagged for a closer look

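The change with shBMAL1 was called different between the lines for CFB, C3, C1R and C1S, where 56.0% of all tested genes had a called interaction. LBP and CFI, which were chosen for such a difference, are only described. LBP had an interaction of -10.65 on the log2 scale and CFI of -7.68. In both, each shBMAL1 library of 786O was above each shControl library and each shBMAL1 library of WT8 was below, and the difference was not tested because the genes were chosen for it. Both fitted values depend on the prior count, as WT8 shBMAL1 held 3 counts in all for each gene. The interaction was -3.17 for C1R, -3.03 for CFB, -3.01 for C3 and -0.82 for C1S by edgeR's test of the difference (adjusted p = 3.66e-13, 1.02e-12, 4.02e-23 and 0.05). C3 and C1S fell in both lines and more so in WT8.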

How the results depend on the processing

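Across 36 results (the members' log2 changes and the counts of called genes) and 694 alternative values, 675 kept their direction and either their side of the threshold or a value within the spread between replicates, and 0 reversed. Genes at the floor in a group moved with the prior count and the tool. With a prior count of 2 the fitted log2 values were -5.69 for LBP in WT8, -9.07 for its interaction, -5.44 for CFI in WT8, -6.25 for its interaction, and -6.66 and 6.66 for CAMP with shBMAL1 in WT8 and between the lines. DESeq2 gave -10.16 and 10.07 and halved counts -9.66 and 9.66 for CAMP, against -10.65 and 10.65 by the main setting. As single libraries were left out, LBP ranged from -7.96 to -6.59 in WT8 and from -11.47 to -10.11 in its interaction, and CFI from -9.97 to -6.33 and from -10.78 to -7.14. The C1S interaction ranged from -1.19 to -0.45 and at its value of -0.82 was not called under a threshold of 0.05. The counts of called list genes and of all called genes stayed within 1.5 times under every alternative run. Libraries with the same replicate number did not deviate together (correlations from -0.0461 to -0.000916, and 0 of 3 libraries in each pair of groups closest to their own number). No pairing by number was thus seen, which does not show that the cultures were unpaired. With the replicate block, list genes called were 58 and 70 in 786O and WT8, as without it, and the C1S interaction was -0.84 (adjusted p = 0.0441). At these depths, levels under 3 counts per library are not resolved.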

Other observations

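The interferon response genes fell with shBMAL1 in both lines, unlike CFB and C1R. Of 20 genes 19 were tested, and 14 fell and 1 rose in 786O while in WT8 16 fell and 0 rose by edgeR, by DESeq2 or at an unadjusted p under 0.05, with medians of -0.74 and -1.63 on the log2 scale. Of all tested genes, 24.4% were called lower and 24.5% higher in 786O, and 36.9% and 32.9% in WT8. OAS1, an antiviral synthetase, had log2 changes of -2.26 and -3.84 (adjusted p = 9.34e-07 and 8.49e-11), and IFIT1 of -1.08 and -2.94 (adjusted p = 4.55e-09 and 8.43e-21). IRF1, an interferon regulatory factor (log2 0.33, adjusted p = 2.59e-06), was the gene that rose in 786O. Between the lines with shControl, IFIT2 was higher in WT8 (log2 2.58, adjusted p = 7.29e-21) and GBP1 lower (log2 -3.40, adjusted p = 1.19e-29).

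The other genes of lipopolysaccharide sensing moved both ways. Of 12 genes 11 were tested, and 2 rose and 4 fell in 786O, and 4 rose and 4 fell in WT8, with medians of 0.17 and 0.00. Of all tested genes, 24.5% were called higher and 24.4% lower in 786O, and 32.9% and 36.9% in WT8. The WT8 counts of this list are thus near the shares of all genes. TLR2 had 142 to 170 counts in 786O shControl and 0 in each library of WT8, at least 53.8-fold lower, and TLR4 had 68 to 78 counts in 786O shControl, at least 25.6-fold higher than in WT8 shControl. CD14, to which LBP hands lipopolysaccharide, had few counts and rose in 786O from 2 to 6 counts to 10 to 12 (log2 1.28, SE 0.58, adjusted p = 0.0741) and fell in WT8 from 14 to 17 counts to 6 to 9 (log2 -1.02, SE 0.50, adjusted p = 0.0717), with an interaction of -2.29 (adjusted p = 0.0118). The cytokine gene CXCL8 fell in WT8 (log2 -1.36, SE 0.07, adjusted p = 1.98e-18).

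Of 10 complement receptor genes 6 were tested. C1QBP rose with shBMAL1 in both lines, with log2 changes of 0.13 in 786O and 0.47 in WT8 (adjusted p = 0.027 and 2.65e-11). ITGAX, a subunit of complement receptor 4, was higher in WT8 with shControl (log2 3.90, SE 0.19, adjusted p = 4.52e-18) and fell there with shBMAL1 (log2 -2.27, SE 0.16, adjusted p = 1.11e-13), from 542 to 616 counts to 112 to 149. ITGAX was also called lower in 786O (log2 -0.86, SE 0.29, adjusted p = 0.0178), where 18 to 55 and 17 to 24 counts overlapped. ITGAM, a subunit of complement receptor 3, fell in both lines, with log2 changes of -1.55 in 786O and -1.31 in WT8 (adjusted p = 0.000235 and 1.07e-05). C3AR1, the receptor of C3a, had 91 to 106 counts in 786O shControl and fell there with shBMAL1 (log2 -0.83, SE 0.25, adjusted p = 0.00647), and it had 11 to 25 counts in the libraries of WT8.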
